A study of Mus musculus with 6 samples.

Results

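The cadherins and protocadherins are adhesion molecules of the cell surface, and the members described here are all genes of the expression table whose symbol begins with Cdh or Pcdh. The rule took 88 of the 13886 genes and used no measured value. Of these, 55 were protocadherins of the alpha, beta and gamma gene clusters and 33 lay elsewhere in the genome, and 57 were on chromosome 18, where *Cdh2* and *Pcdh1* also lie. A further 11 symbols of these families that were looked for, *Cdh1*, *Cdh3*, *Cdh16*, *Cdh17*, *Cdh26*, *Cdhr5*, *Pcdh12*, *Pcdhb1*, *Pcdhb2*, *Pcdhgb3* and *Pcdhgb8*, were not among the genes of the table.

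Classical cadherins bind the same cadherin on a neighbouring cell through calcium-dependent extracellular repeats and are tied to actin by catenins inside the cell, and their type I and type II forms sort neurons and shape synapses. Non-clustered protocadherins, grouped as delta-1 and delta-2 by their cytoplasmic motifs, adhere more weakly and act in axon growth, synapse formation and synapse removal. Clustered protocadherins are made from arrays of alternative first exons. A single neuron uses a small and largely random set of the alternate isoforms, chosen by CTCF, cohesin and DNA methylation at their promoters, together with C-type isoforms that are used more generally, and the resulting mixture lets a neuron tell its own branches from those of other neurons.

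The RNA came from the medial amygdala (MeA), a part of the amygdala that handles social and reproductive cues, of female mice with the genotype Kiss1Cre+/Rpl22HA+/+. In these mice Cre driven by the *Kiss1* gene switches on a haemagglutinin (HA) tag on the ribosomal protein Rpl22, so that ribosomes of *Kiss1* cells can be pulled down with their RNA (RiboTag). The females were ovariectomized when 8 weeks old, received estradiol (E2) for 4 days and then none for 7 days, and for the last 5 days they carried either no hormone (OVX) or an E2 capsule (E2). Each library was 1 pool of MeA punches from 4 mice, with 3 pools per group.

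The scaled library size was 28.08M to 34.16M reads, and library-to-library correlations across all genes, which are not independent replicates, were 0.977 to 0.989. The tag marks every cell that has used the *Kiss1* promoter, and the pulldown can also carry RNA of untagged cells. The 2 gene models named *Kiss1* together held 3.25 to 4.91 CPM (read counts scaled to library size) in OVX and 17.2 to 23.0 CPM in E2 libraries, while the 7 neuron markers together held 5660 to 6030 CPM, the 8 astrocyte markers 1690 to 2220 CPM and the 11 oligodendrocyte-lineage markers 1700 to 2610 CPM in all libraries. Fewer cells of a type and less RNA per cell cannot be told apart in these bulk libraries, here and in all results that follow.

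The promoters of 3 members outside the clusters are shown because E2 acts through receptors that bind DNA directly or through Sp1 at GC boxes, and because these members were among those with the smallest p in the comparison of E2 with OVX. Their ranks by p were 3 for *Pcdh20*, 4 for *Pcdh18* and 7 for *Cdh8*. *Cdh22*, at rank 5, also had a promoter at hand, with a GC box, which is not shown. *Pcdh1*, at rank 1 and also outside the clusters, is not among the members shown, so the choice did not follow p alone. The windows shown are the 250 bases before the start of the gene in RefSeq (GRCm38.p6), read 5′ to 3′ on the gene's own strand, which for all of them is the minus strand. Capitals mark GC boxes (GGGCGG, or CCGCCC on the other strand). *Pcdh20* lies at chr14:88471397-88471646, *Pcdh18* at chr3:49757317-49757566 and *Cdh8* at chr8:99416472-99416721.
Pcdh20: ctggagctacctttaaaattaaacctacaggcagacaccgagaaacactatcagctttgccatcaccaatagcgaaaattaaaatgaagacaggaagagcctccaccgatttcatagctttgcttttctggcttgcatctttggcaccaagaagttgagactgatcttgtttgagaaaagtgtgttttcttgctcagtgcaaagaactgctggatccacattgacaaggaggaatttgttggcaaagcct
Pcdh18: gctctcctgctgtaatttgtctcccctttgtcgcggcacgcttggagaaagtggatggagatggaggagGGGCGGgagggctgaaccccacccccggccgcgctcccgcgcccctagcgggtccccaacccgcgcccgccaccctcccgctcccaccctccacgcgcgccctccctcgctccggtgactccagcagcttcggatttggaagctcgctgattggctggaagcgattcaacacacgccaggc
Cdh8: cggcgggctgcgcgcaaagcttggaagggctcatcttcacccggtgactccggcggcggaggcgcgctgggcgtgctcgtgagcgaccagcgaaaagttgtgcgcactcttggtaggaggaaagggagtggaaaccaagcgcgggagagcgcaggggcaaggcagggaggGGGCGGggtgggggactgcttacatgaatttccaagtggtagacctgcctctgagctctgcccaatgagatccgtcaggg
The *Pcdh20* window had a GC content of 42.4% and no GC box, whereas *Pcdh18* had 68.0% and *Cdh8* 64.4%, with 1 GC box each. A half-site of the estrogen response element (AGGTCA, or TGACCT on the other strand) did not occur in any of the 3. RefSeq promoters of 300 bases (250 before and 50 after the start) were at hand for 25 of the 88 members. Of these, 2 held the half-site (*Cdh18* and *Cdhr2*) against 18.1% of the 27025 promoters of all symbols, and 9 held a GC box against 38.2%. These motifs do not overlap each other in sequence, and a match of 6 letters is a description of the window only.

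The members spanned a wide range of levels. Levels of different genes are given per kilobase, as the log2 CPM minus the log2 of the longest transcript in kilobases, averaged over the 6 libraries. *Pcdh1*, a delta-1 protocadherin, stood highest with 5.79 (5.65 to 5.98 over libraries). It was followed by the C-type isoform *Pcdhgc4* with 5.46 (5.35 to 5.67) and by *Cdh2*, the N-cadherin of synapses and neural epithelia, with 5.24 (5.13 to 5.33). The library values of *Pcdh1* and *Pcdhgc4* overlapped, and those of *Pcdhgc4* and *Cdh2* did not.

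After these came *Pcdhgc5* with 5.23, *Cdh13* with 4.94, *Pcdh8* with 4.64 and *Cdh22* with 4.55, each overlapping its neighbour in the order. *Pcdh10* (4.25) and *Pcdh7* (4.11) lay below the lowest library of *Cdh22* and did not overlap each other, and *Pcdh17* (3.84) lay below *Pcdh7* without overlap. *Cdhr1* (4.24), which ranged from 3.58 to 4.61 over libraries, overlapped all of these. All of the 10 highest members kept their place among the 10 when the level was taken from the mean of linear CPM, and 8 of them did when the length was the union of exonic bases. The highest members thus came from several subfamilies, with 2 of the gamma cluster, 2 of the delta-1 and 2 of the delta-2 protocadherins among the first 10.

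**Figure D1:**
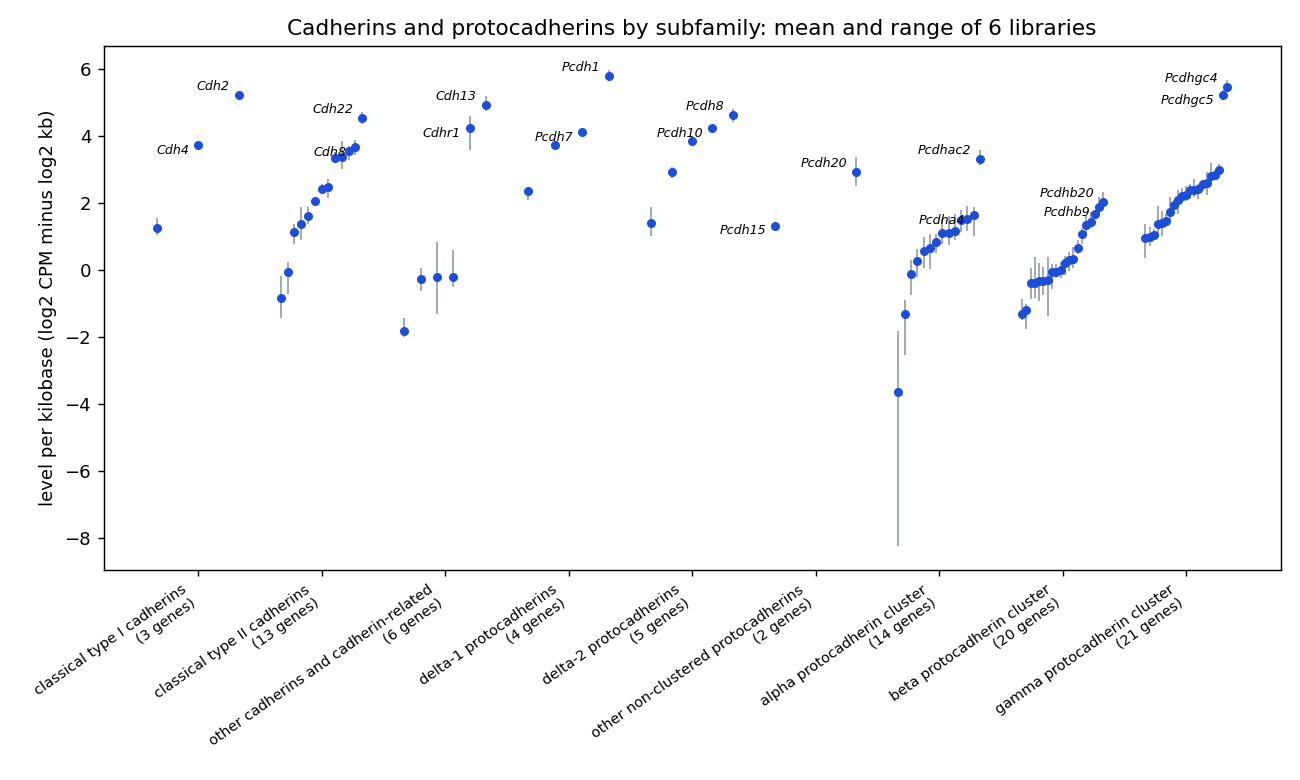
Level per kilobase (log2 CPM minus log2 of the longest transcript in kilobases) of the 88 members, by subfamily, with each point the mean of 6 libraries and each line the range from the lowest to the highest library. *Pcdh1* (5.79), *Pcdhgc4* (5.46), *Cdh2* (5.24) and *Pcdhgc5* (5.23) stand highest, and *Pcdha8* (-3.65) lies lowest with the widest range.

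The comparison of E2 with OVX asked which transcripts of MeA *Kiss1* cells depend on the hormone. No member passed the threshold of an adjusted p under 0.05 (limma on log2 CPM, Benjamini-Hochberg over all genes), against 40 of the 13886 genes (0.288%). At an unadjusted p under 0.05 there were 14 of 88 members (15.9%, against 8.56% of all genes). Of these, 6 were higher with E2 (*Pcdh20*, *Pcdh18*, *Pcdhb3*, *Cdh12*, *Pcdh8* and *Cdh13*), against 4.21% of all genes, and 8 were lower (*Pcdh1*, *Pcdhac2*, *Cdh22*, *Cdh8*, *Cdh9*, *Pcdhgc5*, *Cdh2* and *Cdhr1*), against 4.34%. The 3 E2 values lay wholly above or below the 3 OVX values in 15 members (17.0%, 5 above and 10 below), against 13.7% of all genes. The median difference of the members was 0.00 on the log2 scale, as it was for all genes, with 45 members higher and 43 lower.

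The unadjusted counts differed between the clustered and the other members, and no test was made of that difference. The 55 clustered protocadherins held 3 at an unadjusted p under 0.05 (5.45%, against 8.56% of all genes) and 4 without overlap (7.27%, against 13.7%). The 33 other members held 11 of each (33.3%). The replicate spread also differed, with a median SD within groups of 0.25 on the log2 scale in clustered and 0.13 in the other members, and of 0.13 over all genes. So did the level, with a median log2 CPM of 3.49 in clustered and 5.19 in the other members, and of 4.76 over all genes. The part of spread and level in these counts was not tested.

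**Figure D2:**
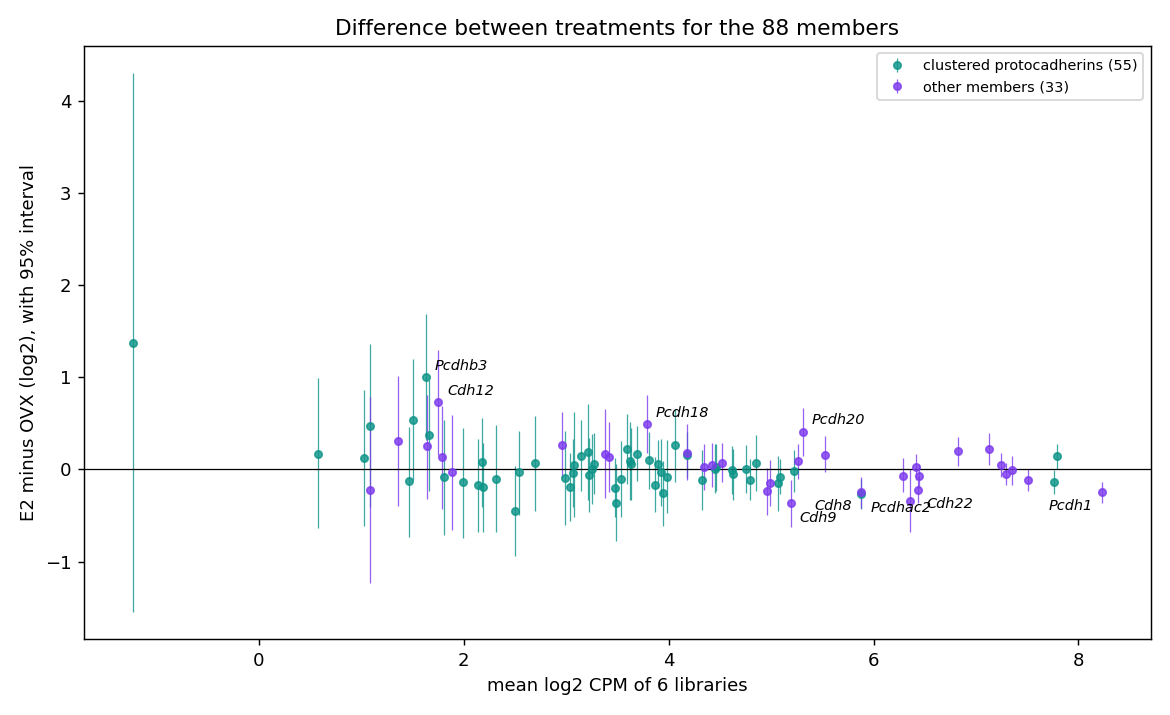
Difference between E2 and OVX (log2) against the mean log2 CPM of the 6 libraries for the 88 members, with clustered protocadherins (55) and the other members (33) in separate colours and bars giving the 95% interval of the limma fit. The members with the smallest p are named, and the bars are widest at low levels, where *Pcdha8*, *Pcdhb3* and *Cdh12* lie.

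Among the classical type I cadherins, *Cdh2* (log2 CPM) stood at 7.57, 7.54 and 7.61 in OVX replicates 1, 2 and 3 and at 7.41, 7.51 and 7.43 in E2 replicates 1, 2 and 3. The E2 values all lay below the OVX values, but E2 replicate 2 came close to OVX replicate 2. The difference was -0.12 ± 0.06 (SE, n = 3 per group; limma adjusted p = 0.581).

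*Cdh4*, the R-cadherin, was at nearly one level in all libraries, from 6.34 to 6.49, with a difference of 0.03 and a 95% interval of -0.12 to 0.17. *Cdh15*, the M-cadherin first known from muscle, was far lower, at 2.84, 2.76 and 2.90 in OVX and 3.07, 3.26 and 2.96 in E2. Its groups did not overlap, with a difference of 0.26 ± 0.17 (SE; limma adjusted p = 0.729). The summed level of the 3 type I genes was 282 ± 8.82 CPM in OVX and 270 ± 8.49 CPM in E2 (SD, n = 3 each).

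All 13 classical type II cadherins looked for were in the table, with 7 higher and 6 lower in E2 and 4 at an unadjusted p under 0.05, against 8.56% of all genes. Type II cadherins mark particular brain nuclei and circuits in combination. *Cdh22*, also called pituitary and brain cadherin, was the highest of them, at 6.62, 6.47 and 6.54 log2 CPM in OVX and 6.25, 6.36 and 6.37 in E2. All E2 libraries lay below all OVX libraries. The difference was -0.22 ± 0.07 (SE; limma adjusted p = 0.321), a fold of 0.860.

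*Cdh8*, found at synapses between cortex and striatum, stood at 6.08, 5.97 and 5.98 in OVX and 5.64, 5.90 and 5.72 in E2. Its groups did not overlap either, although E2 replicate 2 came close to the OVX values. The difference was -0.25 ± 0.08 (limma adjusted p = 0.334), and its promoter is printed above.

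*Cdh9*, known for the placing of hippocampal mossy fibre synapses, stood at 5.67, 5.16 and 5.31 in OVX and 5.07, 4.85 and 5.09 in E2. OVX replicate 1 was well above the other 2 OVX libraries, which lay just over the E2 values. The difference was -0.37 ± 0.12 (limma adjusted p = 0.351), or a level of 42.0 CPM against 32.1 CPM, and without OVX replicate 1 it was -0.23.

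*Cdh12* had the lowest level of the type II cadherins (-0.84 per kilobase). It was at 1.17, 1.45 and 1.53 log2 CPM in OVX and 2.40, 1.82 and 2.11 in E2, with no overlap. The difference was 0.73 ± 0.26 (limma adjusted p = 0.424), so that this gene and the 3 above went opposite ways in values that did not pass the threshold. *Cdh18* was at 4.88 to 5.17 in OVX and 4.74 to 5.13 in E2 (difference -0.15, interval -0.40 to 0.10, and -0.063 without E2 replicate 3 or -0.26 without E2 replicate 2).

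*Cdh8*, *Cdh9* and *Cdh22* had differences of the same sign as genes listed as markers of excitatory neurons of the forebrain beyond the MeA. The libraries do not show which cells these transcripts came from. The paper counts *Vglut1* (*Slc17a7*) among the transcripts of MeA *Kiss1* cells. All 5 of the markers reported here (*Slc17a7*, *Neurod6*, *Neurod2*, *Tbr1* and *Emx1*) were lower in E2, although *Tbr1* differed by only -0.05 (limma adjusted p = 0.915). The other 4 were at an unadjusted p under 0.05 (against 8.56% of all genes), and none passed the threshold. The sum of the 5 was 876 to 1130 CPM in OVX and 663 to 866 CPM in E2 libraries. *Slc17a7*, the vesicular glutamate transporter of cortical neurons, was at 9.91, 9.64 and 9.50 in OVX and 9.22, 9.07 and 9.50 in E2. The part of excitatory neurons beyond the MeA in the values of *Cdh8*, *Cdh9*, *Cdh22*, *Pcdh1* and the other lower members was not tested.

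Cadherins known as marks of other cells had groups that overlapped. *Cdh5*, the VE-cadherin of endothelial junctions, was at 3.10, 3.88 and 2.89 in OVX and 3.38, 3.29 and 3.73 in E2, with 1 OVX library above all others. The 10 endothelial and mural markers summed to 186 to 350 CPM in OVX and 214 to 285 CPM in E2. *Cdh19* (1.26 to 2.20) and *Cdh20* (4.31 to 4.57), both used in the oligodendrocyte lineage, had differences of -0.03 (interval -0.66 to 0.59) and 0.05 (interval -0.19 to 0.29).

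Of the 6 other cadherins and cadherin-related genes, *Cdh13* was the highest. It encodes T-cadherin, which lacks a cytoplasmic tail and is held to the membrane by a lipid anchor. Its log2 CPM was 7.04, 6.93 and 7.08 in OVX and 7.40, 7.06 and 7.24 in E2. E2 replicate 2 lay within the OVX values, so the groups overlapped by one library. The difference was 0.22 ± 0.08 (limma adjusted p = 0.429), and it was 0.13 without E2 replicate 1 and 0.30 without E2 replicate 2.

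*Cdhr1*, known from photoreceptors and olfactory bulb mitral cells, stood at 6.73, 6.39 and 6.47 in OVX and 6.37, 6.49 and 5.70 in E2. E2 replicate 3 was far below the other 5 libraries, which overlapped. The difference was -0.34 ± 0.16 (limma adjusted p = 0.583) with all libraries and -0.10 without E2 replicate 3. *Cdhr3* (1.07 to 2.15) and *Cdh23* (1.47 to 2.03), the latter part of the tip links of hair cells, were near the lower end of all members, and each had its highest value in E2 replicate 1.

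The 4 delta-1 protocadherins summed to 610 ± 10.3 CPM in OVX and 563 ± 3.33 CPM in E2 (SD, n = 3 each). *Pcdh1* (ENSMUSG00000051375, chromosome 18 at 38185914 to 38212053 in GRCm38) had the smallest p of all members. It was at 8.42, 8.31 and 8.33 log2 CPM in OVX and 8.09, 8.08 and 8.13 in E2, or 327 and 275 CPM on average. The lowest OVX library was above the highest E2 library by more than the spread within either group. The difference was -0.25 ± 0.05 (95% interval -0.37 to -0.14), a fold of 0.839, with an unadjusted p of 0.000358 and a limma adjusted p of 0.0888, so that it did not pass the threshold.

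The other delta-1 genes had smaller differences. *Pcdh7*, which binds protein phosphatase 1, was at 7.15 to 7.31 in OVX and 7.23 to 7.31 in E2 (difference 0.05, interval -0.08 to 0.18). *Pcdh9* was at 6.50, 6.45 and 6.48 in OVX and 6.44, 6.38 and 6.40 in E2, values that did not overlap but differed by only -0.07 ± 0.06 (limma adjusted p = 0.819). *Pcdh11x*, on the X chromosome, was at 5.28 to 5.55 in OVX and 5.51 to 5.68 in E2 (difference 0.16, interval -0.03 to 0.36, and 0.082 without OVX replicate 1).

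The 5 delta-2 protocadherins summed to 522 ± 24.6 CPM in OVX and 532 ± 24.5 CPM in E2. *Pcdh8*, called arcadlin, is made after synaptic activity and draws N-cadherin away from the membrane. It was at 6.85, 6.60 and 6.72 in OVX and 6.94, 6.84 and 6.98 in E2, with OVX replicate 1 just above E2 replicate 2. The difference was 0.20 ± 0.07 (limma adjusted p = 0.429).

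*Pcdh18* was the lowest of the delta-2 genes and had the largest difference among them. It stood at 3.63, 3.38 and 3.62 log2 CPM in OVX and at 4.25, 4.06 and 3.80 in E2, so all E2 libraries were above all OVX libraries. The difference was 0.49 ± 0.15 (interval 0.18 to 0.81; limma adjusted p = 0.290), a fold of 1.41. Its level was 11.7 CPM in OVX and 16.5 CPM in E2.

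*Pcdh10* and *Pcdh17*, which act in axon growth, and *Pcdh19*, the X-linked gene of a female epilepsy, had small differences. *Pcdh10* was at 7.29 to 7.37 in OVX and 7.25 to 7.29 in E2 (difference -0.05, interval -0.17 to 0.07). *Pcdh17* was at 7.29 to 7.43 and 7.22 to 7.5 (difference -0.01, interval -0.17 to 0.14). *Pcdh19* was at 6.22 to 6.45 and 6.10 to 6.39.

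*Pcdh20* belongs to no subfamily above and was the member with the third smallest p. It stood at 4.90, 5.20 and 5.23 log2 CPM in OVX and 5.78, 5.48 and 5.30 in E2. The groups did not overlap, but OVX replicate 3 and E2 replicate 3 were close. The difference was 0.41 ± 0.12 (interval 0.15 to 0.67; limma adjusted p = 0.281), a fold of 1.33.

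*Pcdh15*, the partner of *Cdh23* in hair-cell tip links and also a gene of oligodendrocyte precursors, was at 4.38 to 4.56 in OVX and 4.48 to 4.62 in E2 (difference 0.07, interval -0.14 to 0.29). Markers of that lineage and of other glia were on the higher side in E2. Of the 11 oligodendrocyte-lineage markers, 10 were higher, 4 at an unadjusted p under 0.05 (against 8.56% of all genes) and none past the threshold. Their sums were 1700 to 2360 CPM in OVX and 1900 to 2610 CPM in E2. *Pdgfra*, the receptor of the precursors, differed by 0.54 (limma adjusted p = 0.0838). All 8 astrocyte markers were higher, but only 2 were at an unadjusted p under 0.05 and none passed the threshold. Their sums were 1690 to 2110 CPM in OVX and 1850 to 2220 CPM in E2. The part of these cells in the values of *Pcdh18*, *Pcdh20*, *Cdh12* and the other higher members was not tested.

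**Figure D3:**
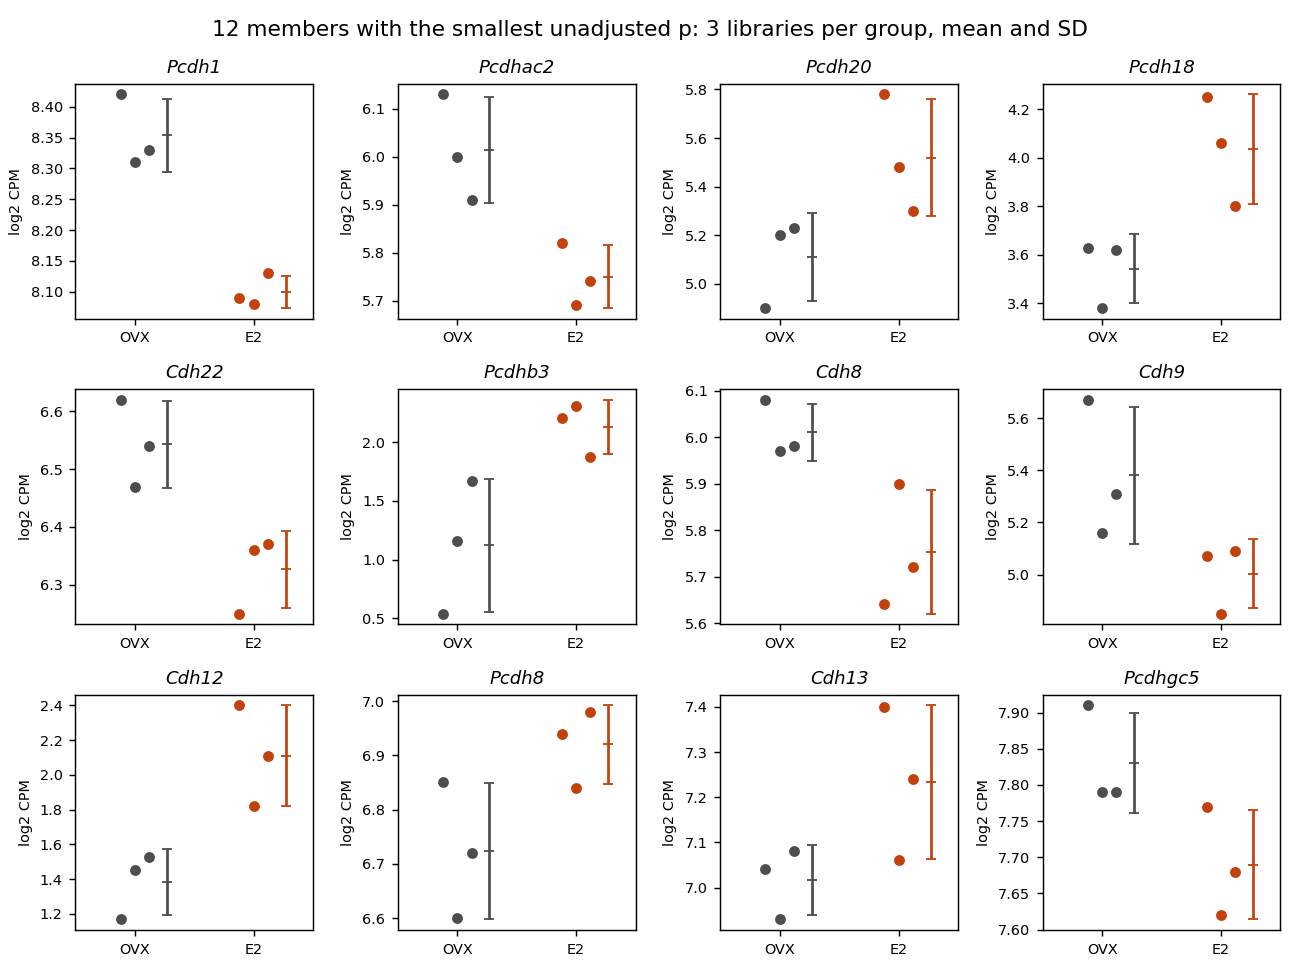
Log2 CPM of the 12 members with the smallest unadjusted p, with 1 point per library in replicate order (3 OVX, 3 E2) and, beside each group, its mean with a bar of 1 SD. Each panel has its own axis, which does not start at 0, and groups do not overlap in any panel except those of *Pcdh8* and *Cdh13*.

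The clustered protocadherins lay in 3 arrays on chromosome 18 in GRCm38, with the alpha genes of the table at 36930184 to 37187661, the beta genes at 37300799 to 37524479 and the gamma genes at 37661793 to 37841873. Together they held 35.5% to 36.5% of the CPM of all members in every library. The gamma cluster held 71.8% to 73.8% of the clustered CPM, the alpha cluster 15.2% to 16.4% and the beta cluster 10.7% to 11.9%. These shares are of CPM, which is not corrected for length, and the longest transcripts were 5206 to 5888 bases in alpha, 2801 to 8695 in beta and 4661 to 5777 in gamma genes. The 14 alpha genes had 2860 to 5274 exonic bases in common with other genes (median 2860). The 21 gamma genes had 2116 to 3157 (median 2119). Isoforms of a cluster are spliced to the same constant exons, and some genes shared more bases than the median. Reads inside shared bases cannot be given to 1 isoform by position. Values of isoforms within these 2 clusters are thus uncertain and not independent of one another. The beta genes have a single exon each and share 455 bases at most.

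A few genes held much of the clustered CPM. The 5 C-type isoforms (*Pcdhac1*, *Pcdhac2*, *Pcdhgc3*, *Pcdhgc4* and *Pcdhgc5*) held 46.4% to 47.3% of the clustered CPM, with 46.8% ± 0.462 in OVX and 46.7% ± 0.317 in E2 (SD, n = 3 each). Within the gamma cluster, *Pcdhgc3*, *Pcdhgc4* and *Pcdhgc5* together held 55.7% to 57.2%. C-type isoforms lie at the ends of the alpha and gamma arrays, and they are used in a regular manner rather than chosen at random. *Pcdhac1* was the exception among them, at -0.12 per kilobase, below all of the 12 alternate alpha isoforms except *Pcdha1* and *Pcdha8*.

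*Pcdhgc4*, which interneurons need for survival, was at 7.71, 7.67 and 7.79 log2 CPM in OVX and 7.81, 8.0 and 7.78 in E2. *Pcdhgc5*, which associates with GABA receptors, was at 7.91, 7.79 and 7.79 in OVX and 7.77, 7.62 and 7.68 in E2. Per kilobase, *Pcdhgc4* minus *Pcdhgc5* was 0.09 ± 0.10 in OVX and 0.37 ± 0.18 in E2 (log2, SD, n = 3 each), with E2 replicate 2 the highest at 0.58, and no test was made of it. The difference between E2 and OVX was 0.14 ± 0.07 for *Pcdhgc4* (limma adjusted p = 0.595) and -0.14 ± 0.06 for *Pcdhgc5* (limma adjusted p = 0.538), and neither passed the threshold. Without E2 replicate 2 that of *Pcdhgc4* was 0.071. *Pcdhgc3* was lower than both, at 5.12 to 5.39 in OVX and 5.0 to 5.36 in E2.

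*Pcdhac2*, which serotonergic axons need to spread out, was the highest alpha isoform and held 28.3% to 36.2% of the alpha CPM. It was at 6.13, 6.0 and 5.91 log2 CPM in OVX and 5.82, 5.69 and 5.74 in E2. All E2 values lay below all OVX values. The difference was -0.27 ± 0.08 (interval -0.43 to -0.10; limma adjusted p = 0.279), a fold of 0.832. The summed alpha level was 191 ± 2.35 CPM in OVX and 178 ± 4.92 CPM in E2.

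The alternate isoforms had lower medians per kilobase than the 5 C-type isoforms, which ran from -0.12 to 5.46 with a median of 3.32. The ranges overlapped. The 12 alternate alpha isoforms ran from -3.65 to 1.64 per kilobase with a median of 0.97, the 20 beta genes from -1.32 to 2.03 with a median of 0.10 and the 18 alternate gamma isoforms from 0.97 to 2.85 with a median of 2.16. The rank correlation between position along the array and level per kilobase was 0.26 over the alternate alpha isoforms, 0.15 over the beta genes and 0.35 over the alternate gamma isoforms, given as a description of points that share libraries and, in alpha and gamma, exons.

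**Figure D4:**
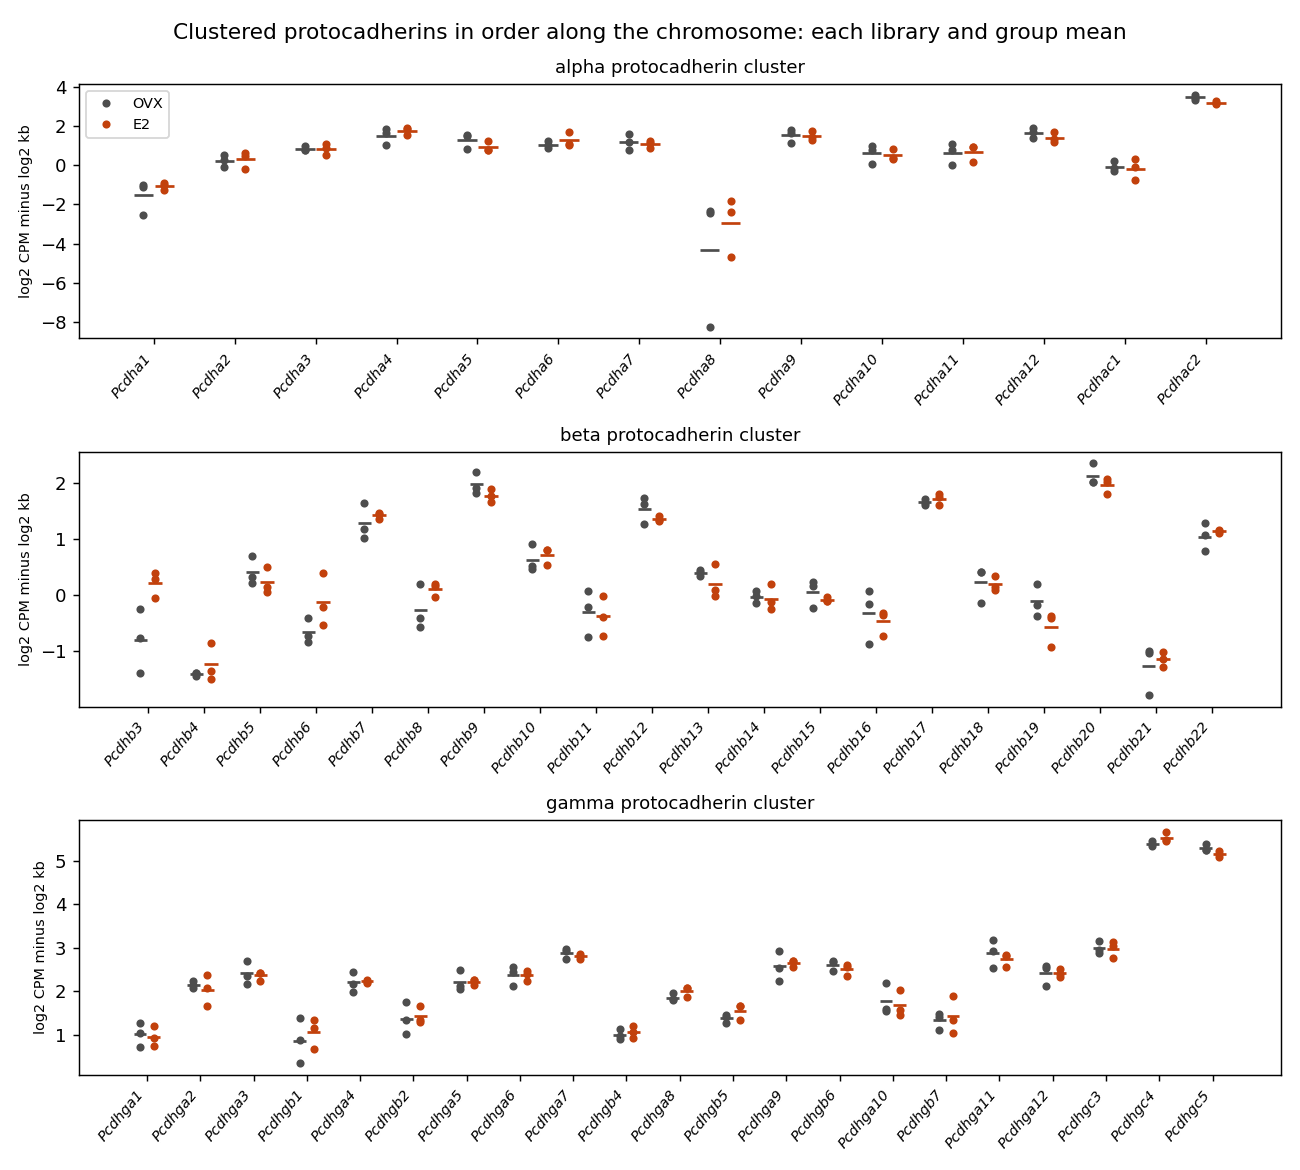
Level per kilobase (log2 CPM minus log2 kilobases) of each clustered protocadherin in order of its start along chromosome 18, in 3 panels for the alpha, beta and gamma clusters, with 1 point per library and a line at the group mean for OVX and E2. *Pcdhac2*, *Pcdhgc4* and *Pcdhgc5* stand above the alternate isoforms of their clusters in all 6 libraries, *Pcdha8* has 1 library far below the rest, and OVX and E2 points overlap for all but 4 of the 55 genes.

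Among the alternate alpha isoforms, *Pcdha4* was the highest, at 3.44, 4.29 and 4.08 log2 CPM in OVX and 4.30, 4.29 and 3.99 in E2. It has 5274 of its 5768 exonic bases in common with other genes, so its level and its place in the order are uncertain. *Pcdha12*, at 3.81 to 4.33 in OVX and 3.60 to 4.12 in E2, differed by -0.26 (interval -0.61 to 0.09, and -0.14 without OVX replicate 2 or -0.41 without E2 replicate 1). *Pcdha8* was the lowest of all members, at -5.82, 0.09 and -0.03 in OVX and 0.02, 0.59 and -2.24 in E2. The value of -5.82 is what a count of 0 gives in that library, so this isoform was not detected in OVX replicate 1 and lay between -0.03 and 0.59 in 4 of the other 5. Its difference of 1.37 had an interval of -1.55 to 4.30, and it turned to -0.58 without OVX replicate 1.

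In the beta cluster, *Pcdhb20*, *Pcdhb9* and *Pcdhb17* were the highest, at 3.62 to 4.17, 3.27 to 3.80 and 3.82 to 4.01 log2 CPM, with groups that overlapped. *Pcdhb3* was low and had the largest difference of the beta genes. It was at 0.54, 1.16 and 1.67 in OVX and 2.21, 2.31 and 1.87 in E2, or 2.29 and 4.41 CPM on average, and all E2 libraries were above all OVX libraries. The difference was 1.0 ± 0.32 (interval 0.32 to 1.68; limma adjusted p = 0.332), a fold of 2.0. The OVX libraries themselves spread over more than 1 log2 unit.

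*Pcdhb4*, which lies next to *Pcdhb3* in the array, was the lowest beta gene, at 0.52, 0.51 and 0.46 in OVX and 1.05, 0.55 and 0.40 in E2, and its groups overlapped. Its difference was 0.17 (interval -0.64 to 0.99), and the differences of these neighbours were not tested against each other. *Pcdhb19* was the other beta gene whose groups did not overlap, at 3.04, 2.66 and 2.47 in OVX and 2.43, 1.92 and 2.47 in E2, where the nearest values were equal to 2 decimals, with a difference of -0.45 ± 0.23 (limma adjusted p = 0.617). The summed beta level was 131 ± 8.04 CPM in OVX and 129 ± 5.24 CPM in E2.

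The gamma cluster had the narrowest range of differences of the 3. Its 21 genes had differences between -0.15 and 0.19, with 11 higher and 10 lower, and summed to 847 ± 10.8 CPM in OVX and 842 ± 5.27 CPM in E2. *Pcdhgb1* was the lowest gamma gene, at 2.59, 3.12 and 3.62 in OVX and 3.40, 3.59 and 2.91 in E2. Its libraries spread by over 1 log2 unit within OVX alone.

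Genes that act with these families were taken from 5 lists of 65 symbols, of which 56 were in the table. None passed the threshold, and 9 were at an unadjusted p under 0.05, 5 higher and 4 lower with E2, against the 8.56% of all genes given above. Of the 9 catenins and relatives in the table, 6 were higher and 3 lower. *Ctnna2*, the neuronal alpha-catenin that links cadherins to actin, was at 7.27, 7.35 and 7.37 log2 CPM in OVX and 7.67, 7.72 and 7.47 in E2, with no overlap. Its difference was 0.29 ± 0.07 (limma adjusted p = 0.144), and without E2 replicate 3 it was 0.36 with an adjusted p of 0.0292, under the threshold. *Pkp4*, a p120-catenin relative, was at 8.34 to 8.36 in OVX and 8.44 to 8.56 in E2 (difference 0.15, adjusted p = 0.404).

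Of the 14 other members of the cadherin superfamily in the table, 8 were higher and 6 lower. *Clstn1*, the synaptic calsyntenin, was at 10.73 to 10.85 in OVX and 10.62 to 10.68 in E2 (difference -0.14, limma adjusted p = 0.514), and *Celsr2*, a seven-pass cadherin of planar polarity, was at 8.08 to 8.25 and 8.04 to 8.09 (difference -0.13, adjusted p = 0.581). The 11 protocadherin partners at the membrane had 2 higher and 9 lower. *Ptk2b*, a kinase bound and held back by clustered protocadherins, was at 9.33, 9.08 and 9.13 in OVX and 8.92, 8.86 and 9.0 in E2 (difference -0.25 ± 0.07, adjusted p = 0.240). *Wasf3*, of the WAVE family that protocadherins recruit to actin, was at 7.38, 7.59 and 7.68 in OVX and 7.69, 7.90 and 7.75 in E2 (difference 0.23 ± 0.08, adjusted p = 0.391). Both had groups that did not overlap, in opposite directions.

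The 9 proteases and subunits that cleave cadherins had 3 higher and 6 lower, with *Aph1b* at 4.29 to 4.50 in OVX and 4.57 to 4.85 in E2 (limma adjusted p = 0.583) and *Ncstn* at 6.14 to 6.28 and 6.04 to 6.12 (adjusted p = 0.715), both parts of gamma-secretase. The 13 regulators of protocadherin promoter choice had 9 higher and 4 lower. Their cohesin partners *Pds5b* and *Pds5a* lay on opposite sides, at 6.57 to 6.65 in OVX and 6.72 to 6.79 in E2 for *Pds5b* (adjusted p = 0.576) and at 5.67 to 5.90 and 5.53 to 5.67 for *Pds5a* (adjusted p = 0.583). The summed level of these regulators was 864 to 890 CPM in OVX and 879 to 887 CPM in E2.

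The remaining marker lists are given for the cells that such punches could hold. The 7 neuron markers had 4 higher and 3 lower, none at an unadjusted p under 0.05. The 7 microglia markers had 2 higher and 5 lower, with sums of 154 to 189 CPM in OVX and 145 to 166 CPM in E2. All 4 fibroblast and meningeal markers in the table were on the higher side, although *Col1a2* differed by only 0.00 and *Dcn* by only 0.06. *Col1a1* passed the threshold (difference 1.18, limma adjusted p = 0.0469). The sums of the 4 were 29.3 to 45.9 CPM in OVX and 38.8 to 55 CPM in E2. All 5 choroid plexus markers were lower, none past the threshold, with sums of 686 to 1070 CPM in OVX and 393 to 1010 CPM in E2. Of the *Kiss1* gene models, 1 passed the threshold, with a difference of 1.91 (limma adjusted p = 0.00475), and the other had a count of 0 in OVX replicate 1 (adjusted p = 0.0942). The first has 583 of its 741 exonic bases in common with other genes and the second all 779. Reads there cannot be given to 1 model by position, so the 2 values are uncertain.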

How the data were processed

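RiboTag IP RNA from the MeA of 3 OVX and 3 E2-treated pools (4 mice each) was sequenced from unstranded polyA libraries. The labels number the replicates within each group, and the pooling of mice is given by the paper. The authors trimmed reads with Trimmomatic 0.38 after FastQC 0.11.8, aligned them with STAR 2.6.0a and quantified genes with RSEM on GRCm38 with Ensembl release 98. By the paper's account they kept protein-coding genes with a mean CPM over 1 in a group. In the deposited values *Pcdha8* is nevertheless below that in both groups, with 0.687 CPM in OVX and 0.909 CPM in E2. The log2 CPM values were made with TMM scaling and voom. Their table of comparisons, which holds the authors' fold changes, statistics and p-values, was not used.

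The deposited log2 CPM of 13886 genes were fitted with limma 3.58.1 in R 4.3.3, with treatment as the only term and a mean-variance trend in the empirical Bayes step. P-values are 2-sided and adjusted by Benjamini-Hochberg over all genes, with a threshold of 0.05. An exact permutation of 3 against 3 libraries has 0.1 as its smallest p, and none was used. The fit was tested on simulated data. The size of a library was worked out from its lowest value, which stands for a 0 count with the voom offset of 0.5, and the spread between pools holds both counting and biological error.

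Gene coordinates, lengths of transcripts and overlaps between exons were taken from release 21 of the GENCODE mouse annotation (GRCm38), in which 13881 gene identifiers matched. That release gives another symbol to the gene the table calls *Pcdha10*, and the table's symbols were used. Promoters came from RefSeq. RSEM divides reads shared by isoforms by likelihood, and without strand, reads of a gene and its antisense partner cannot be told apart. *Cdhr4* has 1459 exonic bases in common with other genes, whose strands were not compared, and is uncertain too.

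The members and the lists (9 subfamilies, 5 pathway lists and 9 marker lists) were chosen with earlier results of these data known. Named members are the 3 highest per kilobase and the lowest of each subfamily, the 12 with the smallest p, those known as markers of other cells, and those with 1 library over 2 log2 units from the next. Pathway genes named are the 2 with the smallest p in each list. *Pcdh19*, *Pcdhb19*, *Pcdhac1* and the marker genes given with values were named after their values were seen. A marker of the excitatory neuron list is not reported here and was left out of its counts and sums.

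Same-numbered OVX and E2 libraries did not deviate together from their group means (correlations across genes of -0.021, -0.121 and -0.083), so replicate numbers were not taken as pairs. The alternatives tried were no trend, voom weights on rebuilt counts, median centring, quantile normalization, log2 of CPM plus 1 or plus 0.1, both stricter filters (every library of a group above 1 CPM, or a mean log2 CPM of at least 1), robust empirical Bayes, a replicate block and leaving out each library in turn, and, for the order of levels, the union of exonic bases and the mean of linear CPM.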

Additional observations from a re-analysis of the deposited data

How the results depend on the processing

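No member passed the adjusted threshold under any of the 16 alternatives, and the smallest adjusted p of a member over all fits was 0.0572, for *Pcdh1* with robust empirical Bayes, within a range of 0.0572 to 0.553 over its alternatives. Members at an unadjusted p under 0.05 numbered 10 without the trend (7.32% of all genes), 13 with quantile normalization (8.69%), 12 with the replicate block (6.37%) and 12 to 16 with one library left out (6.03% to 9.76%), and 14 under each other alternative (8.28% to 8.84%). *Pcdh1*, *Pcdhac2*, *Pcdh20*, *Pcdh18*, *Cdh22*, *Pcdhb3*, *Cdh8* and *Cdh9* were at an unadjusted p under 0.05 in every alternative (8 members). With the replicate block, 0 members and 35 of all genes passed the threshold, and it changed no call of a member. All genes past the threshold numbered 0 without the trend (1017 at an unadjusted p under 0.05, limma) and 20 to 66 with one library left out. The count was 21 without OVX replicate 1, 26 without E2 replicate 1, 20 without E2 replicate 2 and 66 without E2 replicate 3. Members whose groups did not overlap numbered 22 to 28 with one library left out, where fewer samples make overlap rarer and 21.2% to 26.7% of all genes did not overlap. Pathway genes past the threshold were 0 to 1 with one library left out, the 1 being *Ctnna2* without E2 replicate 3 (0.36).

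Of 605 values of 38 named members, 590 kept direction and side and 15 changed sign, all with one library left out and none of them past the threshold in any fit. The range of the difference was -0.58 (without OVX replicate 1) to 2.38 for *Pcdha8*, -0.018 (without E2 replicate 1) to 0.30 for *Pcdhb4*, -0.011 (without E2 replicate 1) to 0.067 for *Cdh4*, also -0.0032 without OVX replicate 1, and -0.087 to 0.05 (without E2 replicate 3) for *Pcdh17*, also 0.021 without OVX replicate 3 and 0.0005 without E2 replicate 2. It was -0.094 to 0.089 (without E2 replicate 2) for *Pcdhgc3*, also 0.057 without OVX replicate 2, -0.068 (without OVX replicate 1) to 0.44 for *Pcdhgb1* and -0.011 (without E2 replicate 1) to 0.51 for *Cdhr3*. It was -0.025 (without OVX replicate 3) to 0.47 for *Cdh5*, -0.20 to 0.27 (without E2 replicate 2) for *Cdh19*, also 0.09 without OVX replicate 2, and -0.0076 (without E2 replicate 2) to 0.13 for *Cdh20*. The cause was not tested. Leaving out 1 library moved the difference of 25 of the 38 by over 1.5 times in some fit, among them 3 of those at an unadjusted p under 0.05 (*Cdh9*, *Cdh13* and *Cdhr1*). The SE was 1.36 for *Pcdha8*, which had a count of 0 in OVX replicate 1, and 0.05 for *Pcdh1*.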
